A study of Mus musculus with 6 samples.

Results

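The genes described here encode 9 proteins of the extracellular matrix, chosen by name: Thbs1, Fn1, Lamc1, Lama5, Tinagl1, Tnc, Postn, Col3a1 and Col5a2. Each had 1 transcript cluster, the array's unit of measurement, paired with that gene alone, so the rule found 9 of the 7659 genes with a value. All 9 lay above the filter on dim genes and were among the 5361 genes tested. All 9 lie on chromosomes 1 to 4, as do the other list genes named by rule. Shares and ranks below refer to the tested genes and not to the whole genome. The 9 genes were measured in siDicer and siScr samples, 3 arrays each. These are Melan-a cells transfected with an siRNA against Dicer or with a control siRNA. Melan-a is a single immortalised line of mouse melanocytes from the C57BL/6 strain. Both groups were grown with 200 nM of the phorbol ester TPA and received 50 pmol of siRNA by lipofection aided by a magnet. The titles place RNA collection at 48 h, whereas the treatment protocol places lysis 24 h after a change of medium. In each group replicates 1, 2 and 3 came from passages 47, 54 and 56. The labels do not say whether the samples differ in anything beyond passage, so the p-values measure the spread between these samples.

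The extracellular matrix is the protein network that cells secrete and attach to. Thrombospondin and fibronectin are large adhesive glycoproteins that bind integrins and other receptors at the cell surface. Laminins are cross-shaped trimers of an alpha, a beta and a gamma chain and form the backbone of basement membranes, the sheets on which melanocytes sit in skin. Fibrillar collagens build the fibres of the dermis and are mostly products of fibroblasts. Dicer cuts microRNA precursors into mature microRNAs, and several matrix genes are known microRNA targets, most of all those of the miR-29 family.

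The mature miR-29 sequences are shown because Lamc1 and Col3a1 are textbook targets of this family, and 1 of them stood on each side of the division described below. They are taken from RefSeq (GRCm38.p6), with the seed, bases 2 to 8, in capitals. All share the same seed.
mmu-miR-29a-3p: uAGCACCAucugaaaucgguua
mmu-miR-29b-3p: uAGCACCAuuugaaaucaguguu
mmu-miR-29c-3p: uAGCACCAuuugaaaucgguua
The microRNAs themselves and Dicer1 were not analysed here, and the extent of the Dicer knockdown is therefore not shown.

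The median log2 signal of an array was 4.63 to 4.68. Over all clusters, Pearson r between any 2 arrays was 0.993 to 0.997. All 5 melanocyte markers looked at (Tyrp1, Slc24a5, Pax3, Mlph and Hps3) were above the dim filter, with log2 signals of 7.71 to 12.96. Of the fibroblast markers 5 of 8 were above it, with Prrx1, Fap and Grem1 below, and so were 2 of 5 endothelial, 4 of 7 keratinocyte and 6 of 8 leukocyte markers. An array signal near the filter can be background, so a gene above it is not thereby shown to be expressed.

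Thbs1, Fn1, the laminin chains Lamc1 and Lama5, and Tinagl1 were higher in siDicer than in siScr cells at each of the 3 passages. The fibrillar collagens Col3a1 and Col5a2 differed between siDicer and siScr by at most 0.061 in size on the log2 scale at every passage, and Tnc and Postn went in different directions. At passage 47 the differences of the first 5 genes ran from 0.15 to 0.67, at passage 54 from 0.22 to 0.76 and at passage 56 from 0.28 to 0.89. Those of the collagens ran from -0.038 to -0.031, from -0.050 to -0.033 and from -0.061 to -0.059 at the same passages. Role and signal level coincided in this division. The 5 higher genes had group means of 8.22 to 10.88 in siDicer and 7.87 to 10.62 in siScr, and the other 4 had 5.22 to 6.29 in siDicer and 5.26 to 6.34 in siScr. The keratinocyte marker Flg reached a log2 signal of 7.07 on these melanocyte arrays. The next highest, Sfn, had group means of 5.76 in siDicer and 5.77 in siScr. The top of the range of the keratinocyte markers, used below, thus rests on Flg alone. Tnc and Col3a1 had means above those of Sfn and under those of Flg. By the level of Flg, Tnc, Postn, Col3a1 and Col5a2 are not shown to be above background. A small difference in them therefore does not show that their RNA did not change. Of all tested genes, 16.1% were higher in siDicer at all 3 passages. The genes were named with earlier results of these data known, so their number is a description.

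**Figure D1:**
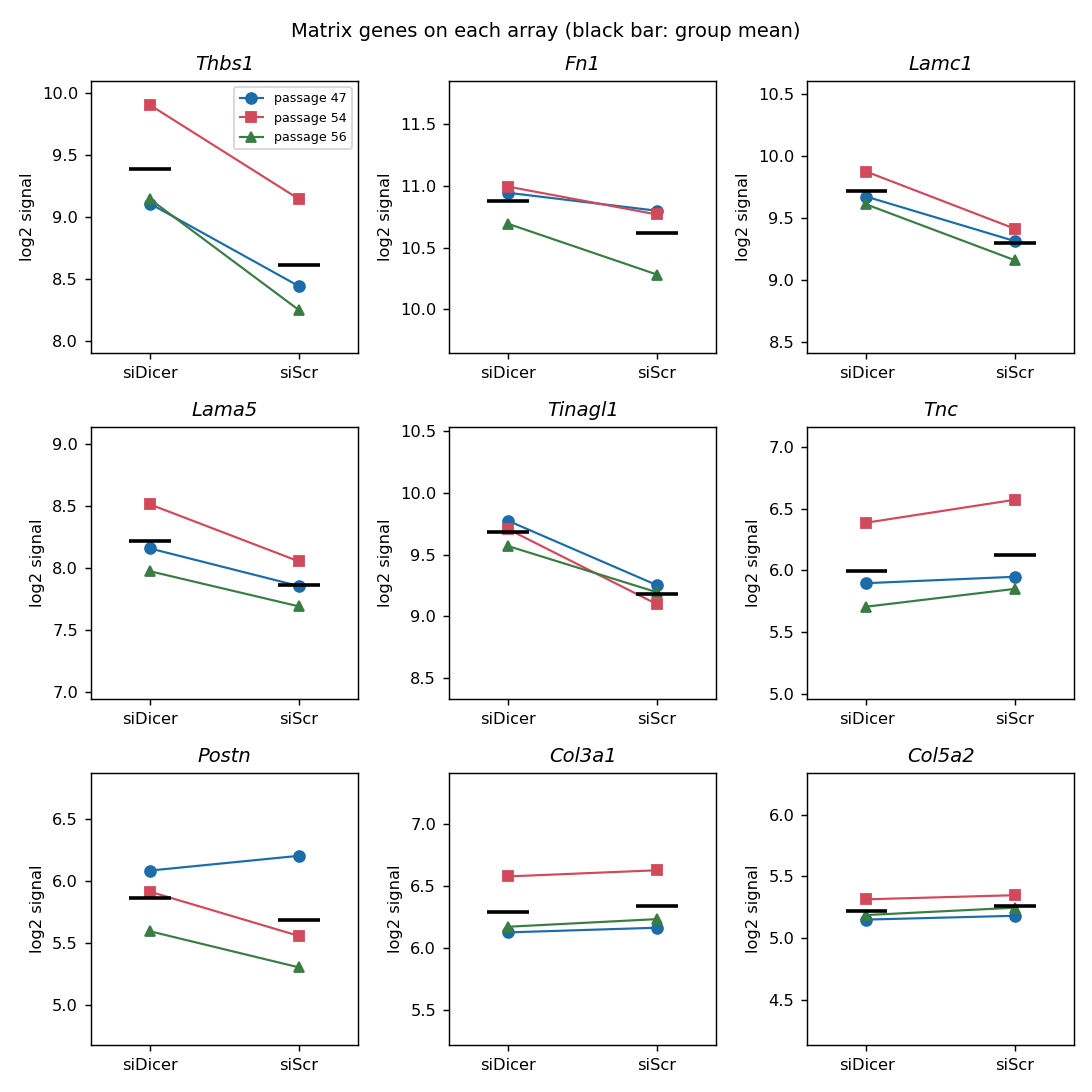
Log2 signal (y axis, each panel spanning the same range) of the 9 genes on each array, siDicer left and siScr right, with lines joining the arrays of a passage and black bars for the group means. The lines of Thbs1, Fn1, Lamc1, Lama5 and Tinagl1 fall towards siScr at all 3 passages, and those of Col3a1 and Col5a2 are nearly level.

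No member passed the test over all 6 arrays (limma, Benjamini-Hochberg adjustment over all tested genes, threshold 0.05). This test called 0.0187% of all genes, which is 1 gene, Tmem131, lower in siDicer. With passage as a block, which compares siDicer with siScr within each passage, Thbs1, Lamc1 and Tinagl1 rose and 0 members fell. That fit called 1.14% of all tested genes upward and 1.73% in either direction. At an unadjusted p under 0.05, 4 members passed without the block (Thbs1, Lamc1, Lama5 and Tinagl1), beside 8.52% of all tested genes. With the block 5 did (Fn1 too), beside 13.8%. A difference of 0.25 or more upward was seen in these same 5 members and in 3.39% of all tested genes.

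Thbs1 encodes thrombospondin, a secreted glycoprotein that binds cells, limits vessel growth and can activate latent TGF-beta. Its log2 signal was 9.11, 9.90 and 9.14 in siDicer cells at passages 47, 54 and 56, against 8.44, 9.15 and 8.25 in siScr cells (cluster TC0200001729.mm.1, chromosome 2). The siScr array at passage 54 exceeded the 2 lower siDicer arrays, so the groups overlapped, while siDicer was higher within every passage. The differences were 0.67, 0.76 and 0.89. The group means were 9.39 ± 0.45 in siDicer and 8.61 ± 0.47 in siScr (SD, n = 3 arrays each), a 1.71-fold difference. The log2 difference of 0.77 ranked 5 from the top among 5361 genes. Its standard error was 0.27 without the block (limma, adjusted p = 0.460) and 0.071 with it (limma blocked by passage, adjusted p = 0.00655). The spread between passages of siScr cells, 0.90, was larger than the difference itself. Without siDicer replicate 2 the unblocked difference was 0.51, and without passage 47 the blocked fit gave 0.83 and missed the threshold (limma, adjusted p = 0.0527).

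Fn1 encodes fibronectin, which links collagens, heparan sulfate and integrins. Its log2 signal was 10.94, 10.99 and 10.69 in siDicer cells at passages 47, 54 and 56, against 10.80, 10.77 and 10.28 in siScr cells (cluster TC0100002544.mm.1, chromosome 1). The groups overlapped, since the siDicer array at passage 56 lay below 2 siScr arrays, and in both groups passage 56 was the lowest. The mean difference was 0.26, with a 95% interval of -0.079 to 0.60 without the block and 0.078 to 0.44 with it. It did not pass in either fit (limma, adjusted p = 0.700 unblocked and 0.190 blocked by passage). Without siScr replicate 3 the difference was 0.093.

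Lamc1 encodes the laminin gamma chain found in most laminin trimers. Its log2 signal was 9.67, 9.87 and 9.61 in siDicer cells at passages 47, 54 and 56, against 9.31, 9.41 and 9.16 in siScr cells (cluster TC0100003273.mm.1, chromosome 1). The lowest siDicer array was above the highest siScr array. The means were 9.72 ± 0.14 in siDicer and 9.30 ± 0.13 in siScr (SD, n = 3 each), a 1.34-fold difference. The log2 difference of 0.42 had a standard error of 0.097 without the block (limma, adjusted p = 0.238) and 0.065 with it (limma blocked by passage, adjusted p = 0.0309). In the blocked fit it missed the threshold without passage 47 and without passage 54 (limma, adjusted p = 0.162 and 0.165), and when no dim gene was filtered out (adjusted p = 0.0539).

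Lama5 encodes a laminin alpha chain that pairs with the Lamc1 product in basement membranes of epithelia and vessels. Lama5 signal on the log2 scale was 8.16, 8.52 and 7.98 in siDicer cells at passages 47, 54 and 56, against 7.86, 8.06 and 7.69 in siScr cells (cluster TC0200005402.mm.1, chromosome 2). The groups overlapped, with siDicer higher within each passage by 0.30, 0.46 and 0.28. The mean difference of 0.35 (95% interval 0.0094 to 0.69 without the block, 0.19 to 0.50 with it) did not pass (limma, adjusted p = 0.575) and narrowly missed once blocked by passage (limma, adjusted p = 0.0534). It passed with the block under quantile normalisation (limma, adjusted p = 0.0412). Without siDicer replicate 2 the unblocked difference was 0.20.

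Tinagl1 encodes a secreted glycoprotein of basement membranes that binds integrins. Its log2 signal was 9.77, 9.70 and 9.57 in siDicer cells at passages 47, 54 and 56, against 9.25, 9.10 and 9.20 in siScr cells (cluster TC0400003627.mm.1, chromosome 4). The groups did not overlap. The means were 9.68 ± 0.10 in siDicer and 9.18 ± 0.078 in siScr (SD, n = 3 each), a 1.41-fold difference. The log2 difference of 0.50 had standard errors of 0.079 without the block and 0.072 with it, the closest pair among the 5 higher genes, and the spread between passages of siScr cells was 0.15. It did not pass without the block (limma, adjusted p = 0.128) and passed once blocked (limma, adjusted p = 0.0289). The blocked call was lost without passage 47, without passage 54 and without the dim filter (limma, adjusted p = 0.184, 0.137 and 0.0511). Non-overlapping groups with siDicer higher were found in 6.68% of all tested genes and in 2 of the 9 members, Lamc1 and Tinagl1. The opposite, siDicer lower without overlap, was found in 7.82% of all tested genes and in 0 of the members.

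**Figure D2:**
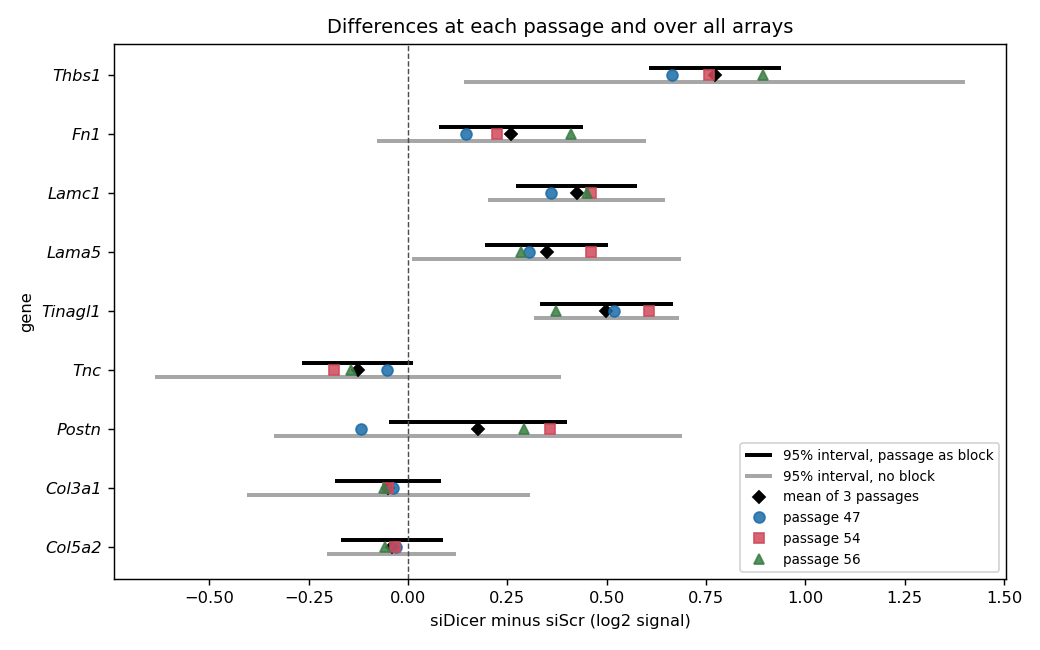
Difference of siDicer minus siScr in log2 signal (x axis) for each gene, at each passage (coloured markers) and as the mean over passages (black diamond), with the 95% interval of the limma fit with passage as a block (black bar) and without it (grey bar). The intervals of Thbs1, Lamc1, Lama5 and Tinagl1 lie above 0 in both fits, that of Fn1 in the blocked fit, and those of Tnc, Postn, Col3a1 and Col5a2 include 0 in both. These intervals are not adjusted for the number of genes.

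Tnc encodes tenascin C, a glycoprotein that loosens adhesion to fibronectin. Its log2 signal was 5.90, 6.39 and 5.71 in siDicer cells at passages 47, 54 and 56, against 5.95, 6.57 and 5.85 in siScr cells (cluster TC0400002812.mm.1, chromosome 4). Passage 54 was the highest in both groups, and siDicer was lower at each passage, as in 20% of all tested genes. The difference of -0.13 did not pass (limma, adjusted p = 0.937, with passage as a block 0.421), and its blocked 95% interval ran from -0.27 to 0.014. The sign turned when siScr replicate 2 was left out (0.097).

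Postn encodes periostin, a matrix protein of bone, heart valves and wounds. The log2 signal of Postn was 6.09, 5.91 and 5.59 in siDicer cells at passages 47, 54 and 56, against 6.20, 5.56 and 5.30 in siScr cells (cluster TC0300000408.mm.1, chromosome 3). The siDicer array was lower than its siScr partner at passage 47 and higher at the other two. The mean difference was 0.18 with a 95% interval of -0.34 to 0.69 without the block and -0.048 to 0.40 with it. It did not pass (limma, adjusted p = 0.892, with passage as a block 0.477), and it was -0.016 without siScr replicate 3. In both groups passage 47 was the highest and passage 56 the lowest.

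Col3a1 encodes the chain of type III collagen and Col5a2 a chain of type V collagen, which starts and thins fibres. They lie next to each other on chromosome 1 in the RefSeq gene order. The log2 signal of Col3a1 was 6.12, 6.58 and 6.17 in siDicer cells at passages 47, 54 and 56, against 6.16, 6.63 and 6.23 in siScr cells (cluster TC0100000343.mm.1). That of Col5a2 was 5.15, 5.31 and 5.19 in siDicer cells, against 5.18, 5.35 and 5.25 in siScr cells (cluster TC0100002278.mm.1). Both genes were highest at passage 54 and lowest at passage 47 in both groups. The differences between groups were smaller than the spread over passages. They were -0.050 for Col3a1 and -0.041 for Col5a2, and neither passed (limma, adjusted p = 0.966 and 0.936 unblocked, 0.774 and 0.816 blocked by passage). The blocked 95% intervals were -0.18 to 0.083 for Col3a1 and -0.17 to 0.088 for Col5a2. At signals that may be background, these intervals may set no limit on a change in the RNA. Without siScr replicate 2 the signs turned, to 0.094 for Col3a1 and 0.0035 for Col5a2.

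The order of the passages was shared between siDicer and siScr for most members. In both groups passage 54 was the highest of the 3 for Thbs1, Lamc1, Lama5, Tnc, Col3a1 and Col5a2, and passage 47 for Tinagl1 and Postn. Fn1 was highest at passage 54 in siDicer cells and at passage 47 in siScr cells. The spread over passages of siScr cells was 0.72 for Tnc, 0.46 for Col3a1, 0.36 for Lama5 and 0.25 for Lamc1. The summed linear signal of the 8 fibroblast markers with a value was also highest at passage 54, at 674 in siDicer and 614 in siScr, against 467 to 512 and 473 to 491 at the other passages. The summed melanocyte markers were lowest there, at 10169 in siDicer and 10873 in siScr, against 12003 to 12297 and 12324 to 13570. In a linear sum the brightest gene weighs most. Among the fibroblast markers this was S100a4, with mean log2 signals of 8.15 in siDicer and 7.90 in siScr, followed by Ddr2 with 6.55 and 6.82. Among the melanocyte markers it was Tyrp1, with 12.81 and 12.86. The part of the fibroblast and melanocyte markers in the levels at passage 54 was not tested. Between the groups, the summed ranges of all 5 marker lists overlapped. Within passages, the melanocyte sum was lower in siDicer each time, at 12297, 10169 and 12003 in siDicer against 13570, 10873 and 12324 in siScr at passages 47, 54 and 56. Slc24a5, Pax3 and Hps3 were lower in siDicer at all 3 passages, with mean differences of -0.25, -0.12 and -0.25. Tyrp1 and Mlph had mean differences of -0.049 and -0.045. Tyrp1 was higher in siDicer at passage 56, by 0.052, and Mlph at passage 54, by 0.060. Of all tested genes, 20% were lower and 16.1% higher in siDicer at all 3 passages. Among the fibroblast markers with a value, only S100a4 had a higher mean in siDicer, by 0.25 and at all 3 passages. Ddr2 and Fap were lower at all 3, with -0.27 and -0.22, and Fap, below the dim filter, was not tested. Slc24a5, Pax3, Hps3, S100a4 and Ddr2 did not pass (limma blocked by passage, adjusted p = 0.140, 0.497, 0.142, 0.140 and 0.335). The part of these shifts in the differences of the matrix genes was not tested. In bulk RNA, fewer cells with more RNA and more cells with less cannot be told apart.

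Over the 6 arrays, the signals of Thbs1, Lamc1 and Lama5 followed each other, with Pearson r between 0.930 and 0.957, and those of Col3a1, Col5a2 and Tnc did so between 0.876 and 0.966. Between these 2 sets of 3 genes r was 0.059 (Lamc1 with Col5a2) to 0.585 (Thbs1 with Col3a1), and it was -0.39 for Tinagl1 with Col5a2. Fn1 and Tinagl1 followed Thbs1 less closely (r of 0.75 and 0.63), and Fn1 also followed Postn (0.78). All these points share the same 6 arrays and 3 passages. Among 3422 other protein-coding genes the 3 most like Thbs1 in pattern were Hs2st1, Plxna2 and Ppp1r12b (r of 0.988, 0.985 and 0.983), with smaller differences between siDicer and siScr than Thbs1, of 0.12, 0.32 and 0.094. The 3 most like Lamc1 were Fndc3b, Itga8 and F3 (r of 0.990, 0.988 and 0.988), which themselves differed between siDicer and siScr by 0.46, 0.99 and 0.87. The 3 most like Col3a1 were Crybg2, Nckap5 and Slc17a9 (r of 0.996, 0.994 and 0.989), with differences between groups of -0.014, -0.012 and -0.0052.

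RefSeq (GRCm38.p6) gave promoter windows for 5 of the 9 genes, Lama5, Tinagl1, Tnc, Postn and Col3a1. Shown here are the 250 bases before 1 of the listed starts of Tinagl1 and Lama5, which were higher in siDicer, and of Col3a1, which was not. Capitals mark matches, on either strand, to 6 motifs searched. They were TGANTCA (the AP-1 site or TPA response element), the E-boxes CACGTG and CATGTG, the GC box GGGCGG, the TATA box TATAAA and CCAAT.
Tinagl1 (chr4:130175123-130175372, minus strand): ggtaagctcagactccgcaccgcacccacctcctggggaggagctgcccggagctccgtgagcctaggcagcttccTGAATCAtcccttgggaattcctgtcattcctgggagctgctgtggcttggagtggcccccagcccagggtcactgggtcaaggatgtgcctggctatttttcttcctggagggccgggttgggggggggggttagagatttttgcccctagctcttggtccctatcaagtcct
Lama5 (chr2:180225860-180226109, minus strand): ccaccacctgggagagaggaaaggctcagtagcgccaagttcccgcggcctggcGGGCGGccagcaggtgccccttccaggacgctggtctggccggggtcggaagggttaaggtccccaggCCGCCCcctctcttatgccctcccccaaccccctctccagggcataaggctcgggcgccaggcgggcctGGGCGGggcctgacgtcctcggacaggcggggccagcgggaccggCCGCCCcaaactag
Col3a1 (chr1:45311288-45311537, plus strand): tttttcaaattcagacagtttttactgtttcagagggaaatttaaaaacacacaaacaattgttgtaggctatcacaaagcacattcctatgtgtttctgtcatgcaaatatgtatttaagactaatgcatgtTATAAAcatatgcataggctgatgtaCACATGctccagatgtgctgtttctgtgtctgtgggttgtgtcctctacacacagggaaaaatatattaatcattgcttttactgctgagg
The Tinagl1 window held 1 AP-1 match, found in 6.75% of 32851 windows, and a further RefSeq start of Tinagl1 had 4 GC box matches in its window. The Lama5 window also held 4 GC box matches (32.7% of windows held at least 1) and had a GC content of 72.4%. The Col3a1 window, with a GC content of 35.2%, held 1 TATA box match and 1 CATGTG match (12.4% and 12.3% of windows). No motif was common to the Tinagl1 and Lama5 windows shown, and a match describes letters in a window and is not a binding site.

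Lists of other matrix genes were set beside the members. The median difference over all 5361 tested genes was -0.0093, with 2439 higher and 2922 lower in siDicer. Of 8 other laminin and basement membrane genes tested, 4 were higher and 4 lower in siDicer, with a median of 0.0007. Npnt, nephronectin, a basement membrane ligand of integrins, rose with passage as a block. Its signal was 9.20, 9.03 and 9.25 in siDicer cells against 8.64, 8.39 and 8.78 in siScr cells, a difference of 0.56 (limma blocked by passage, adjusted p = 0.0209). Hspg2, the heparan sulfate proteoglycan perlecan, differed by 0.30 and missed the threshold (limma blocked by passage, adjusted p = 0.0828). Hmcn1 was at 0.15 and Col4a3, a basement membrane collagen chain, at -0.11. The laminin chains Lamc3 and Lamb3 were at -0.033 and 0.030. Their mean signals, 5.95 and 4.99 in siDicer against 5.98 and 4.96 in siScr, also lay in the range of the keratinocyte markers. Those of Hmcn1, Col4a3, Col4a4 and Col15a1 lay there too, and only Npnt and Hspg2 of this list were above it. The median of this list therefore rests mostly on genes not shown to be above background.

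Of 12 other matrix glycoproteins tested, 6 were higher and 6 lower, with a median of -0.0041, and 1 (Npnt again) passed with the block. Only Npnt and Ccn1 had group means above the range of the keratinocyte markers, so the others are not shown to be above background. Igfbp5, a matrix-bound binder of insulin-like growth factors, was at -0.27, with 6.26, 6.15 and 5.96 in siDicer cells against 6.44, 6.29 and 6.45 in siScr cells, and did not pass (limma, adjusted p = 0.430, with passage as a block 0.194). The cartilage protein Matn1 was at -0.12 and the hyaluronan-binding Tnfaip6 at 0.097. Thbs3, a relative of Thbs1, was at -0.081.

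All 16 other collagen genes on the list were tested, and 0 passed in either fit. They were higher in 5 and lower in 11 cases, with a median of -0.043 and a range of -0.13 to 0.13. At all 3 passages 9 of the 16 were lower, against 20% of all tested genes, by small amounts. All but Col5a1 had group means in the range of the keratinocyte markers, so these counts do not show how collagen RNA changed. Col6a3 was at -0.13, Col9a2 at -0.13 and Col24a1 at -0.093, while the highest was Col5a1, the partner chain of Col5a2, at 0.13. Of the 5 tested genes listed as miR-29 targets, Lamc1 passed with the block, and Col3a1, Col5a1, Col5a2 and Col15a1 (-0.047) did not. The signals of Col3a1, Col5a2 and Col15a1 may be background, so the lack of a call does not show that their RNA was unchanged.

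Among 9 genes of collagen processing and secretion, 5 were higher and 4 lower, with a median of 0.027. Adamts4, Adamtsl2 and Sulf1 had group means in the range of the keratinocyte markers. P3h1, a prolyl hydroxylase of collagen chains, rose by 0.36 in the blocked fit (limma, adjusted p = 0.0489), with 7.73, 7.61 and 7.49 in siDicer cells against 7.30, 7.18 and 7.25 in siScr cells. Sulf2, which removes sulfate from heparan sulfate chains outside the cell, rose by 0.43, with 8.99, 8.98 and 8.90 in siDicer cells against 8.55, 8.53 and 8.51 in siScr cells (limma blocked by passage, adjusted p = 0.0289). Tmem131, which takes part in collagen secretion, fell by 0.88 and was the 1 gene called without the block (limma, adjusted p = 0.00396). Adamtsl4, a matrix protein related to the ADAMTS proteases, was at -0.19.

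Matrix proteases and their inhibitors showed 4 higher and 7 lower of 11 tested, with a median of -0.0075 and 0 passing in either fit. Only Cst3 and Adamtsl4 had group means above the range of the keratinocyte markers. Cst3, cystatin C, an inhibitor of cysteine proteases, was at 0.19, Adam15 at 0.063 and the collagen-cutting cathepsin Ctsk at -0.068. Of 10 receptors of the matrix 9 were higher, with a median of 0.16, beside 2439 higher of all 5361 tested genes. Itga4, Itga10, Cd93 and Ddr2 had group means in the range of the keratinocyte markers, so they are not shown to be above background. Itga8, an integrin alpha subunit that binds nephronectin and fibronectin, rose by 0.99 in the blocked fit (limma, adjusted p = 0.00655), with 7.31, 7.66 and 7.25 in siDicer cells against 6.59, 6.61 and 6.08 in siScr cells. The siScr signals of Itga8 lay under the highest keratinocyte signal, 7.07, and may be background, so the size of its rise is uncertain. Itgav, the integrin subunit that binds vitronectin and fibronectin, was at 0.30, the syndecan Sdc3 at 0.22 and the hyaluronan receptor Cd44 at 0.16, and none of the 3 passed (limma blocked by passage, adjusted p = 0.0858, 0.275 and 0.313). The 1 lower receptor was Ddr2, a receptor of fibrillar collagens, at -0.27.

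**Figure D3:**
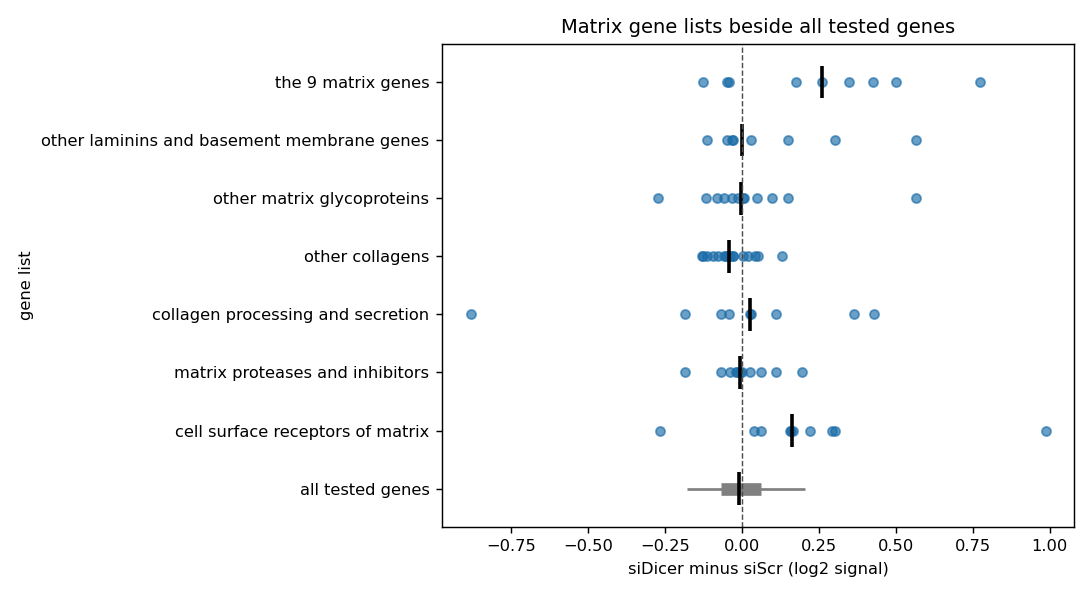
Difference of siDicer minus siScr in log2 signal (x axis) for the tested genes of each matrix list (points, with the median as a black line). The bottom row gives all tested genes, with the median, the 25th to 75th percentiles (thick bar, -0.067 to 0.061) and the 5th to 95th (thin bar, -0.18 to 0.21). The other collagens, all but Col5a1 at signals that may be background, lie between -0.13 and 0.13, while Thbs1 and Itga8 lie far to the right.

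**Figure D4:**
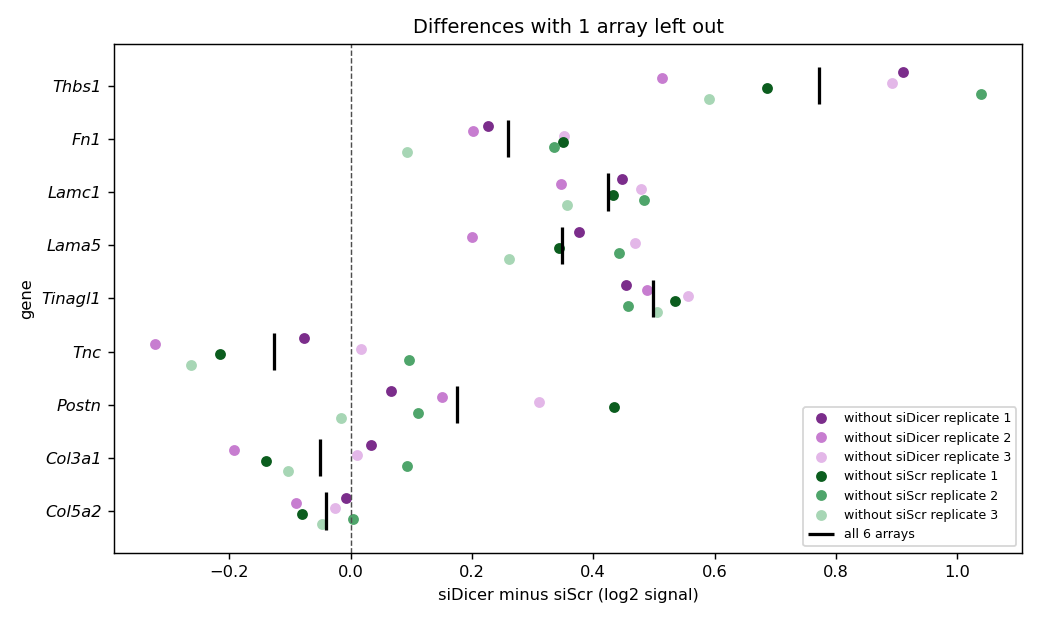
Difference of siDicer minus siScr in log2 signal (x axis) for each gene with 1 array left out (coloured points) and with all 6 arrays (black line), in the fit without a block. Thbs1, Fn1, Lamc1, Lama5 and Tinagl1 stay above 0 with any array left out, with Fn1 closest at 0.093, and the other 4 genes have points on both sides.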

How the data were processed

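RNA was measured on 6 Affymetrix Clariom D mouse arrays, from 100 ng of total RNA each, per the labels' protocols. The authors deposited log2 signals per transcript cluster, made with Affymetrix Expression Console per the submitters' processing notes. How probes were summarised and background-corrected, and on which genome build, is not given in the sources used here. The values (1.70 to 13.70) show a log2 scale, and the centring beyond the array medians is unknown. The number of arrays limits the precision.

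Of 16383 clusters, 7715 were paired with 1 gene by the platform's annotation (aliases of a gene counted once), 270 with several and 8398 with none. Coverage of chromosomes other than 1 to 4 is not shown here. All 7715 matched the RefSeq gene table, and 320 symbols were updated. The cluster with the highest mean was kept per gene (7659 genes, each member having 1 cluster), and genes under the 30th percentile of mean signal (log2 4.15) were left out, which left 5361. siDicer was set against siScr in R 4.3.3 using limma 3.58.1 (lmFit, eBayes with a trend, two-sided, Benjamini-Hochberg over all tested genes, threshold 0.05), tested on simulated data first. Intervals are 95%. An exact permutation test of 3 against 3 arrays cannot go below p = 0.1. Replicate numbers pair the samples because the labels tie each to a passage shared by both groups. Deviations from the group means correlated at 0.42, 0.62 and 0.070 for replicates 1, 2 and 3. Mismatched numbers gave -0.54 to 0.29, and siDicer replicate 1 with siScr replicate 3 (0.29) exceeded the matched pair of passage 56.

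The members, lists, motifs and naming rule were chosen with earlier results of these data known. The rule named all members, up to 4 genes of each list by smallest p, list genes passing with the block, and the 3 genes most similar in pattern to Thbs1, Lamc1 and Col3a1. Lamc3, Lamb3, Thbs3, Ddr2, Flg, Sfn, Itga4, Itga10, Cd93, Adamts4, Adamtsl2 and Sulf1 were named after their values were seen. Alternatives were the passage block, quantile normalisation, median centring, array weights, no trend, no dim filter, a filter at the 50th percentile, all clusters as rows and leaving out each array. Combinations with the block were added after the data were seen.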

Additional observations from a re-analysis of the deposited data

Results flagged for a closer look

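Of the 9 members, 1 had differences of over 0.1 in opposite directions at different passages. Postn differed between siDicer and siScr by -0.12 at passage 47, where it was lower in siDicer, and by 0.36 and 0.29 at passages 54 and 56, where it was higher. Each passage holds 1 array per group, and the difference between passages was not tested. Groups of 3 arrays are too small for a test of single outlying arrays.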

How the results depend on the processing

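Thbs1, Fn1, Lamc1, Lama5 and Tinagl1 stayed higher in siDicer under each alternative run. Fn1 passed in none of them. With the block 93 genes passed over all genes, against 1 without, among them Thbs1 (0.77), Lamc1 (0.42) and Tinagl1 (0.50). Array weights alone gave 14 genes and called Tinagl1 (0.48). Leaving out 1 array gave 0 genes (siDicer replicate 3 dropped) to 2 (siScr replicate 2 dropped).

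With the block and a further change, 5 genes passed when passage 47 was dropped, 19 when passage 54 was and 153 when passage 56 was. There were 22 with dim genes kept in, 105 after quantile normalisation, 125 after median centring, 141 with array weights and 99 without a trend. In these fits Thbs1 passed at 0.78 and 0.71 without passages 54 and 56, 0.77 with dim genes kept in, 0.78 after quantile normalisation or median centring, 0.76 with weights and 0.77 without a trend. Lamc1 passed at 0.41 without passage 56, 0.41 after quantile normalisation, 0.44 after median centring, 0.43 with weights and 0.42 without a trend. Tinagl1 passed at 0.56, 0.48, 0.51, 0.53 and 0.50 in the same order, and so did Lama5 at 0.38, 0.34, 0.36, 0.38 and 0.35. Fits with fewer passages have fewer degrees of freedom.

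Signs turned for genes near 0. With array weights Tnc was at 0.090 and Col3a1 at 0.087. With 1 array left out Tnc ran from -0.32 to 0.097 (0.018 without siDicer replicate 3), Postn from -0.016 to 0.43, Col3a1 from -0.19 to 0.094 (0.033 and 0.011 without siDicer replicates 1 and 3) and Col5a2 from -0.090 to 0.0035. Thbs1 ran from 0.51 to 1.04, Fn1 from 0.093 to 0.35, Lamc1 from 0.35 to 0.48, Lama5 from 0.20 to 0.47 and Tinagl1 from 0.45 to 0.56. The cause was not tested.

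List medians with 1 array left out ran from -0.018 to 0.019 for other laminins and basement membrane genes, -0.064 to 0.042 for other glycoproteins, -0.083 to -0.018 for other collagens, -0.015 to 0.021 for collagen processing and -0.031 to 0.094 for miR-29 targets. Array weights gave 0.035, 0.045, -0.015 for the first 3 and 0.087 for the last. The filter at the 50th percentile, which tests fewer genes, gave -0.029 for the first and 0.042 for the last.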
